A study of Mus musculus with 65 samples.

Results

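B1 and B2 are the main families of short interspersed elements (SINEs) of the mouse genome. The 947480 copies of both families among the 3725827 repeat copies of the count table were chosen by the family name in each row, B1 being listed there as SINE Alu and B2 as SINE B2. B1 had 574557 copies in 16 subfamilies and B2 had 372923 copies in 5 subfamilies, and 300507 B1 copies and 195927 B2 copies held at least 1 count. Each copy is known only by its subfamily and a serial number, so no position or sequence is given for it here.

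SINEs are short repeats that spread by copying their RNA into DNA with the enzymes of L1 elements. B1 descends from 7SL RNA, the RNA of the signal recognition particle, and B2 from a transfer RNA. Both carry an internal promoter for RNA polymerase III, and many copies also lie inside introns and untranslated regions of genes, where they are transcribed as part of the host gene by RNA polymerase II. B2 RNA made by RNA polymerase III is known to rise in stressed cells and to bind RNA polymerase II. Reads from polyadenylated RNA assigned to a copy cannot tell these kinds of transcript apart.

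The 65 libraries fell into 19 groups of poly(A)-selected RNA in 3 experiments, each analysed on its own. Bone marrow-derived dendritic cells of C57BL/6 mice without stimulation were wild type, Suv39h1KO (no Suv39h1 histone methyltransferase), IfnarKO (no type I interferon receptor) or Suv39h1KO with IfnarKO, with 3 libraries each. A second experiment gave dendritic cells bacterial lipopolysaccharide (LPS) at 100 ng/mL for 0, 2 or 4 h, in wild type (6, 5 and 6 libraries), MyD88KO (3 per time) and TrifKO (3 per time), MyD88 and Trif being the adaptor proteins of the LPS receptor. The remaining experiment used RAW264.7, a macrophage line of BALB/c origin, carrying a control guide RNA or one of 2 other guides, at 0 and 2 h of LPS with 3 libraries each; the labels give neither the target of the guides nor the LPS dose for this line. Replicates are labelled as cohorts; whether wild-type LPS libraries that share a cohort number come from separate animals is not given, so p-values measure only the spread between libraries.

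Gene counts per library ran from 36879570 to 95292653. B1 received 325815 to 874221 counts and B2 204659 to 499277 counts per library, 18.5% and 11.2% of all repeat counts. Dendritic cell markers were present in the bone marrow libraries (all 6 genes at a median of at least 1 CPM, the count per unit of gene total commonly used for libraries of unequal depth), and all 6 macrophage markers in RAW264.7, whose sample titles say DC and in which the dendritic cell genes Flt3 and Ccr7 had a median of 0. All 6 macrophage markers were also present in the dendritic cell libraries, summing to 3402 to 17970 CPM there and to 4902 to 8003 in RAW264.7, and their part in the results was not tested. Among other cell types, the summed granulocyte markers ran from 63.4 to 1126 CPM in the dendritic cells and the summed T cell, mast cell and B cell markers stayed at or below 103 CPM. Suv39h1 had 0.111 to 0.370 CPM in the 6 Suv39h1KO libraries and 36.1 to 66.7 in the other libraries of that experiment. Ifnar1 was 134 to 156 in IfnarKO against 171 to 200 in wild type, and Myd88 at 0 h was 56.0 to 60.5 in MyD88KO against 86.9 to 93.2; which part of either gene is missing is not given in the sources used here, so these levels check little. Ticam1, the gene of Trif, was 35.2 to 48.5 CPM in 7 of the 9 libraries labelled TrifKO, as in wild type, and was low only in the libraries of cohort 3 at 2 h (2.98) and 4 h (2.46). Xist, made in female cells, also differed between times within each TrifKO cohort. It varied in the other LPS groups too, from 0.0306 to 1324 CPM in wild type and from 0.0171 to 668 in MyD88KO at 0 h. Each dendritic cell LPS group thus held libraries with and without Xist, and sex was not a term of the fits. Which part of Ticam1 is missing is not given either, so its level alone does not settle which of the 9 TrifKO libraries lack Trif. The 9 libraries were not uniform in Ticam1, however, and are not shown to share 1 genotype. They are therefore called the libraries labelled TrifKO, and their values are those of a group mixed in Ticam1 level, which is no test of Trif loss. Of 12 sensors of double-stranded RNA, 0 rose in them at 2 h and 10 in wild type (11.3% and 21.4% of all genes). At 4 h 10 of these 12 genes rose less in them than in wild type (9.34% of all genes).

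Wild-type LPS libraries carry numbers up to 14 or from 33 upwards, and these sets differed in B2 per B1 count. The ratio was 0.516 to 0.574 in the low-numbered and 0.597 to 0.613 in the high-numbered wild-type libraries at 0 h, without overlap. All MyD88KO libraries have low numbers and all TrifKO libraries high ones. Wild type occurs in both sets at every time, so each of these labels also has wild-type libraries of its own set. At 2 h the sets were unequal, with 3 high-numbered and 2 low-numbered wild-type libraries against 3 and 3 at 0 h. Low-numbered cohort 2, with the lowest ratio at 0 h (0.516), has no library at 2 h.

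Counts were first set against gene counts. The LPS comparisons depend on how this is done, because LPS moved the trimmed-mean (TMM) scaling factors that edgeR takes from genes. The mean factor in wild-type dendritic cells was 1.19 at 0 h, 0.914 at 2 h and 0.763 at 4 h, and the 100 highest genes took 22.3%, 25.4% and 27.1% of gene counts. With the factors the median gene differed from 0 h by -0.04 at 2 h and -0.06 at 4 h (log2), and without them by -0.43 and -0.71. A rise of a SINE family on the TMM scale is thus a rise relative to the typical gene, and not as a share of all gene counts. Levels below are TMM-scaled CPM, per gene counts, unless called plain, which means divided by the gene total alone.

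B2 rose more than B1 in RAW264.7 macrophages after 2 h of LPS, with every guide. In the control guide, B2 was 5142, 5609 and 5053 at 0 h and 7244, 7184 and 6480 at 2 h. B1 was 8356, 9154 and 8411 at 0 h and 10287, 10528 and 9476 at 2 h. The times did not overlap for either family on this scale. Plain B2 levels did not overlap either, at 5426 to 5965 against 6087 to 6817, whereas plain B1 levels did, at 8851 to 9733 against 8902 to 9925.

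The log2 difference was 0.40 ± 0.05 for B2 (SE; edgeR quasi-likelihood adjusted p = 7.93e-08) and 0.22 ± 0.05 for B1 (adjusted p = 0.00016). Without the TMM factors B2 still rose (0.22, adjusted p = 0.000676) and B1 no longer passed (0.05, adjusted p = 0.475). Scaled to repeat counts with TMM factors from the repeat rows, B2 rose by 0.11 (adjusted p = 0.000815) and B1 fell by 0.07 (adjusted p = 0.0157). As a plain share of repeat counts B2 did not rise in the control guide, with 11.4% ± 0.20 (SD) at 0 h and 11.2% ± 0.34 at 2 h, and B1 went from 18.7% ± 0.15 to 16.2% ± 0.40. The rise of B2 thus held on gene totals with and without TMM factors and on repeat counts with them, and not as a plain share of repeat counts, while the direction of B1 depended on the scaling.

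The ratio of B2 to B1 counts needs no scaling between libraries. It was 0.615, 0.613 and 0.601 in the control guide at 0 h and 0.704, 0.682 and 0.684 at 2 h. Guide 1 went from 0.601, 0.598 and 0.611 to 0.708, 0.681 and 0.702, and guide 2 from 0.612, 0.600 and 0.628 to 0.698, 0.695 and 0.733. All 9 libraries at 2 h lay above all 9 at 0 h. The log2 difference of the ratio was 0.18 ± 0.02 in the control guide (1.13-fold; edgeR adjusted p = 1.99e-06), 0.21 ± 0.02 in guide 1 (adjusted p = 2.17e-07) and 0.21 ± 0.02 in guide 2 (adjusted p = 1.93e-07). Of all repeat rows in the same fit, 40.5%, 42.2% and 46% differed from B1 with the 3 guides. The exact two-sided permutation test gave p = 0.1 for each guide, the smallest that 3 against 3 libraries allow.

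**Figure D1:**
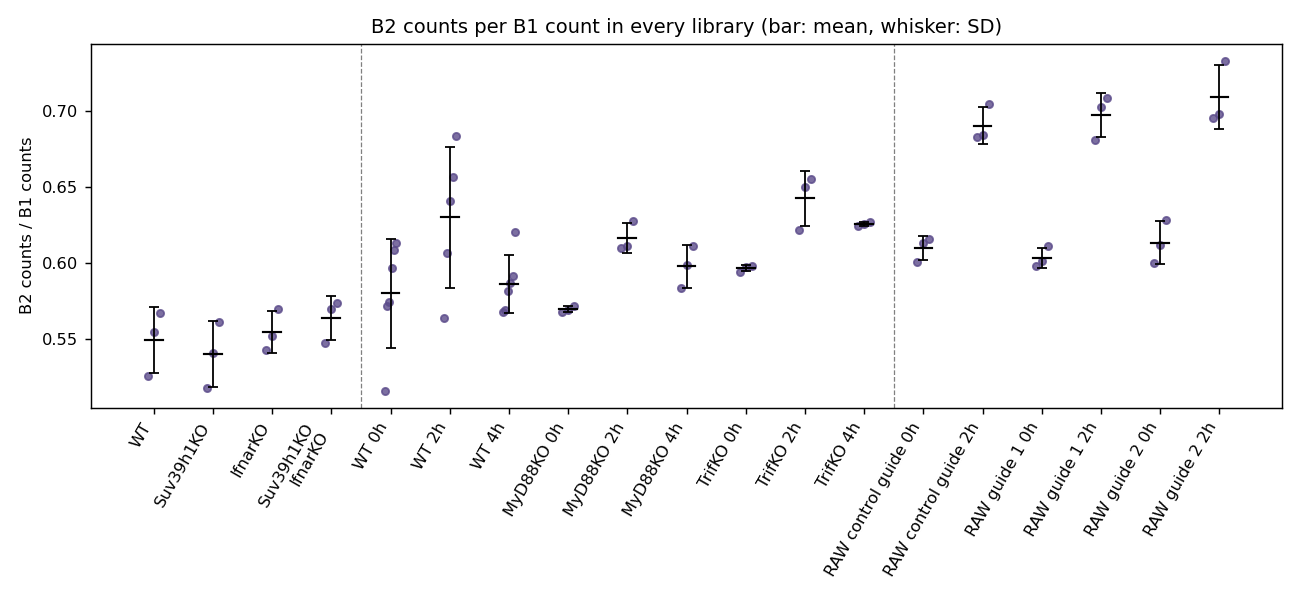
Each point is 1 library, grouped by genotype or guide and time; the vertical axis is B2 counts divided by B1 counts, bars are means and whiskers SD, and dashed lines part the 3 experiments. The RAW264.7 libraries at 2 h lie between 0.681 and 0.733, above all RAW264.7 libraries at 0 h (0.598 to 0.628), while wild-type dendritic cells spread widely at each time.

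Other SINE families of RAW264.7 cells were also set against B1. Relative to B1 in the control guide, MIR, an ancient SINE family shared by mammals, rose by 0.10 ± 0.02 (edgeR adjusted p = 0.000798). Deu, another SINE family, rose by 0.28 ± 0.05 (adjusted p = 0.000126), more than the 0.18 of B2, and by 0.37 and 0.32 with guides 1 and 2; whether Deu and B2 differ was not tested. B4 differed from B1 by 0.02 ± 0.02 (adjusted p = 0.421) and ID by -0.02 ± 0.02 (adjusted p = 0.453). With guides 1 and 2, B4 was above B1 by 0.04 in each (adjusted p = 0.0389 and 0.0375) and ID did not pass. In wild-type dendritic cells at 4 h the order was another one: MIR exceeded B1 by 0.44, B4 by 0.13 and ID by 0.12 (adjusted p = 1.74e-09, 0.00163 and 0.000187), Deu fell relative to B1 by 0.26 ± 0.05 (adjusted p = 5.12e-05), and B2 differed from B1 by 0.02 and did not pass.

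In wild-type dendritic cells both families rose with LPS relative to the typical gene. B1 ran from 6347 to 8848 with a median of 8202 at 0 h, from 7443 to 11553 (median 10295) at 2 h and from 10812 to 14602 (median 12309) at 4 h. B2 ran from 3275 to 5425 (median 4792), from 4197 to 7582 (median 6595) and from 6153 to 8567 (median 7219). Every library at 4 h was above every library at 0 h for both families, and the libraries at 2 h overlapped those at 0 h.

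At 4 h B1 was higher by 0.67 ± 0.09 (log2, edgeR adjusted p = 8.96e-08) and B2 by 0.68 ± 0.11 (adjusted p = 5.73e-06). At 2 h B1 was higher by 0.33 ± 0.09 (adjusted p = 0.00415) and B2 by 0.45 ± 0.12 (adjusted p = 0.00231). As plain shares of gene counts neither family passed at either time: at 4 h the difference was 0.02 for both (adjusted p = 0.875 and 0.853), and at 2 h it was -0.06 for B1 and 0.06 for B2 (adjusted p = 0.575 and 0.677). The 2 h calls of both families were also lost without the 10 highest copies of each subfamily (0.18 for B1 and 0.33 for B2; adjusted p = 0.421 and 0.138). Mean plain B1 levels were 9461 ± 1131 (SD, n = 6), 9071 ± 1177 (n = 5) and 9565 ± 638 (n = 6) at 0, 2 and 4 h. As a share of repeat counts, B1 went from 19.9% ± 0.39 (SD) at 0 h to 17.4% ± 1.0 at 2 h and 17.4% ± 0.57 at 4 h, and B2 from 11.5% ± 0.55 to 10.9% ± 0.34 and 10.2% ± 0.13. Scaled to repeat counts with TMM factors from the repeat rows, the direction was the other one: B1 was higher by 0.02 at 2 h (edgeR adjusted p = 0.744) and 0.10 at 4 h (adjusted p = 0.0153), and B2 by 0.13 (adjusted p = 0.00012) and 0.12 (adjusted p = 0.00019).

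**Figure D2:**
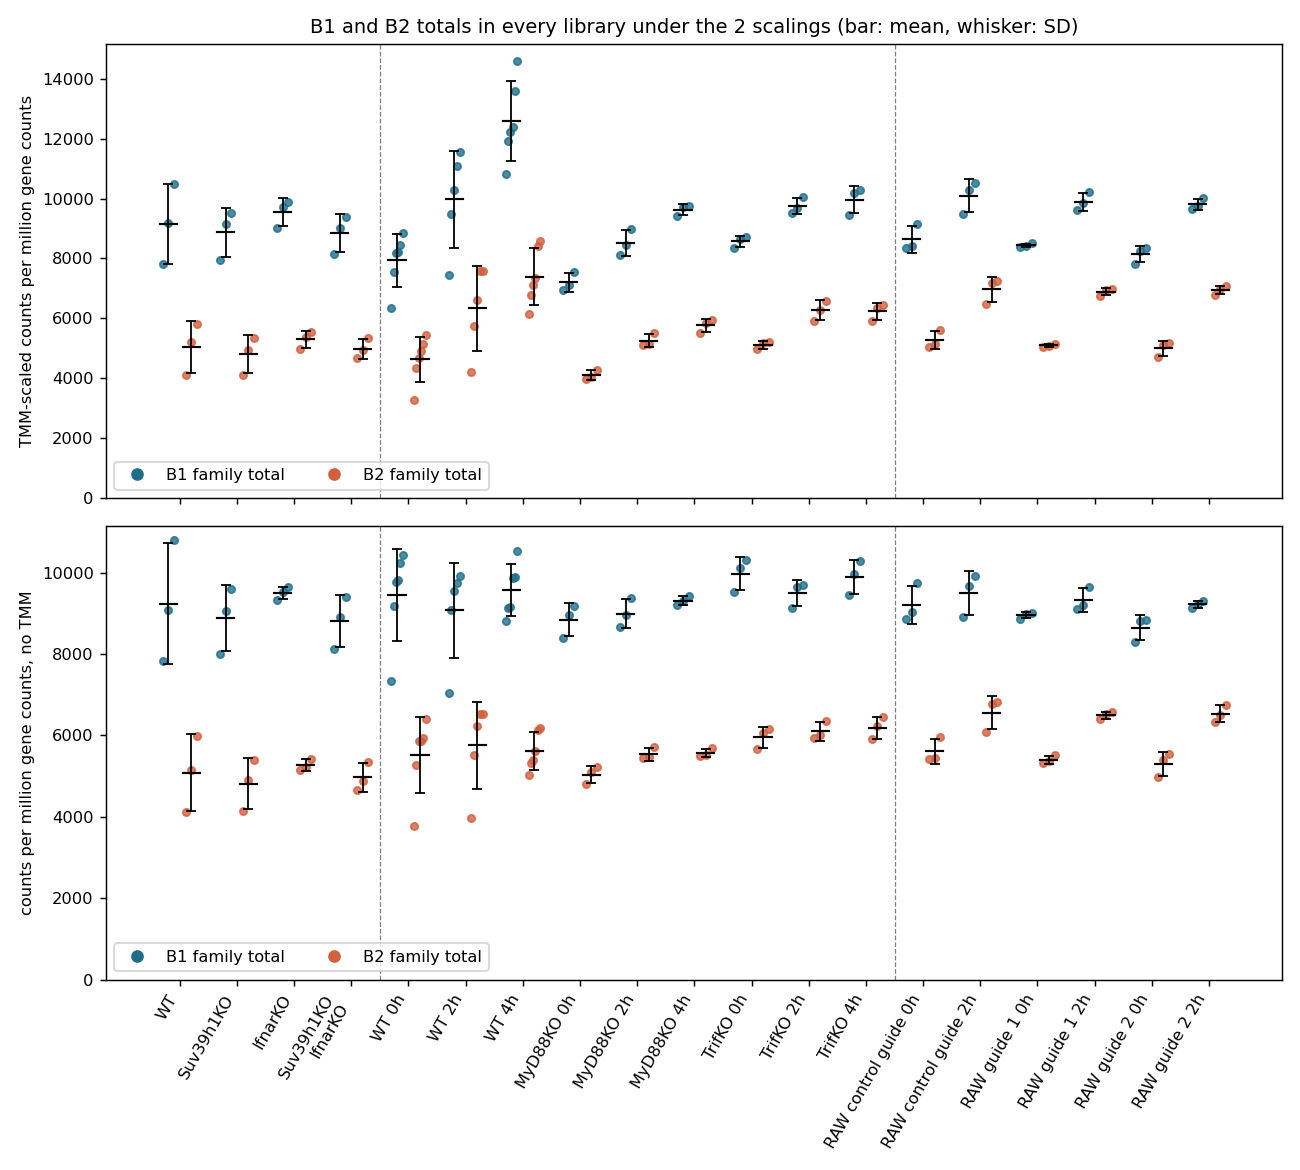
B1 and B2 family totals in every library, on the TMM scale above and as plain CPM of gene counts below; points are libraries, bars means and whiskers SD. On the upper axis wild-type dendritic cells climb with LPS, with B1 medians of 8202, 10295 and 12309, and on the lower axis their B1 medians are 9791, 9552 and 9512.

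**Figure D3:**
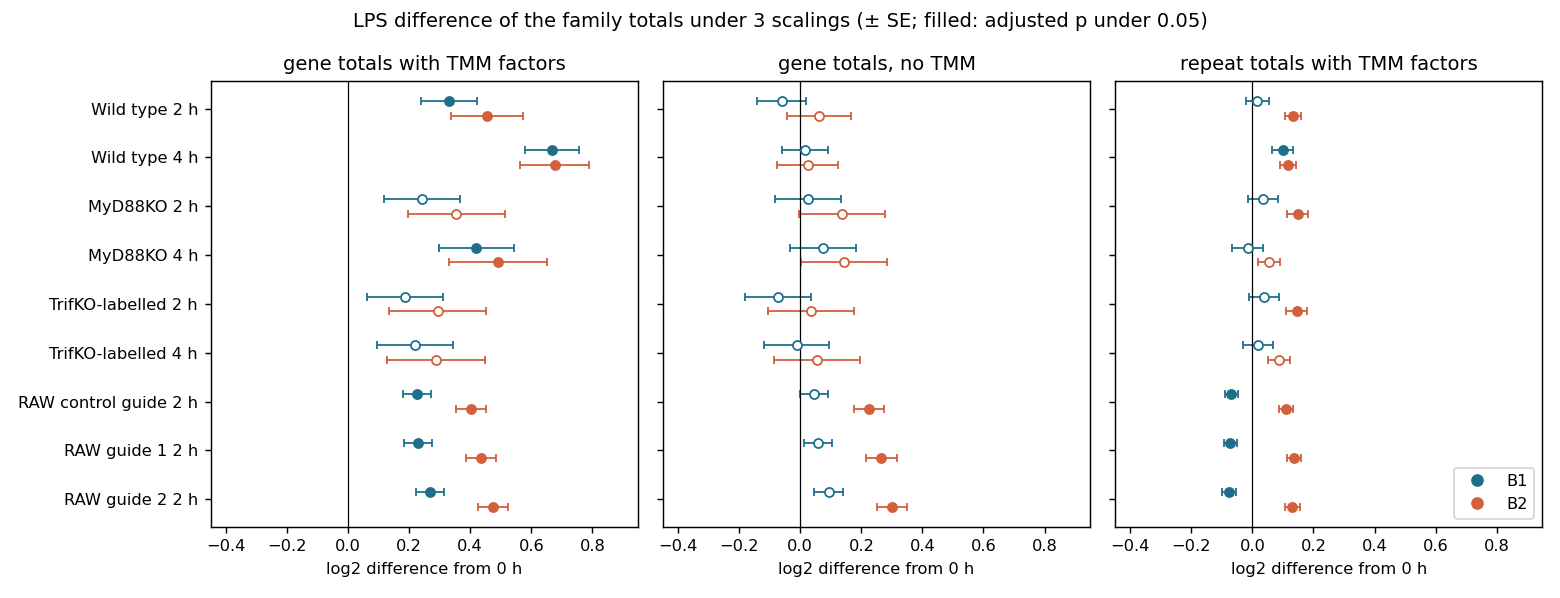
Log2 differences from 0 h of B1 and B2 after LPS under 3 scalings, with SE as whiskers; filled points have an adjusted p under 0.05. The third panel uses repeat totals with TMM factors from the repeat rows, not plain shares of repeat counts. The B2 difference of RAW264.7 cells is above 0 and filled in these panels, B1 of RAW264.7 cells changes side, and the wild-type dendritic cell differences at 4 h of 0.67 and 0.68 shrink to 0.02 without TMM factors.

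In wild-type dendritic cells the ratio of B2 to B1 passed the test at 2 h, and at 4 h its call depended on which copies were counted. The ratio ran from 0.516 to 0.613 (median 0.586) at 0 h, from 0.564 to 0.683 (median 0.641) at 2 h and from 0.568 to 0.620 (median 0.584) at 4 h, so all times overlapped. The log2 difference of the ratio was 0.12 ± 0.04 at 2 h (edgeR adjusted p = 0.0141; 45.7% of repeat rows differed from B1) and 0.02 ± 0.04 at 4 h (adjusted p = 0.741; 64.7%). At 4 h it passed without the 10 highest copies of each subfamily (0.13, adjusted p = 0.00709) and with young subfamilies only (0.15, adjusted p = 0.011). From 2 to 4 h it fell by 0.10 (adjusted p = 0.0466; 28.3%), a comparison added after the values had been seen, and without the 10 highest copies this difference was -0.015 and did not pass. The exact permutation test over libraries gave p = 0.0931, 0.749 and 0.0693. Within the high-numbered libraries the 2 h difference was 0.12 (edgeR adjusted p = 0.00373, ratio 0.641 to 0.683 against 0.597 to 0.613). Within the low-numbered ones it was 0.08 (adjusted p = 0.287), with only 2 libraries at 2 h. The pooled 2 h value thus sets 3 high-numbered and 2 low-numbered libraries against 3 and 3 at 0 h. Its call was kept with the library set as a term. Without the library of cohort 1 with the highest ratio at 2 h the pooled value was 0.09 (adjusted p = 0.0721).

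In MyD88KO and TrifKO-labelled dendritic cells the ratio was higher in every LPS library than in any library of the same label at 0 h. Whether the 2 h difference passed depended on the fit. MyD88KO had 0.568, 0.572 and 0.569 at 0 h, 0.611, 0.610 and 0.628 at 2 h and 0.599, 0.583 and 0.611 at 4 h, so both LPS times lay above 0 h. The libraries labelled TrifKO had 0.594, 0.598 and 0.598 at 0 h, 0.650, 0.655 and 0.622 at 2 h and 0.627, 0.624 and 0.625 at 4 h, again without overlap with 0 h. The differences at 2 h were 0.11 ± 0.05 in MyD88KO (edgeR adjusted p = 0.157) and 0.11 ± 0.05 in TrifKO-labelled libraries (adjusted p = 0.206), and each exact permutation test was at its smallest p, 0.1. With the library set as a term both passed (adjusted p = 0.0331 and 0.0462), as they did with the wild-type libraries of a cohort summed (0.00526 and 0.0083). The difference from the wild-type response at 2 h was -0.01 ± 0.07 for MyD88KO and for the libraries labelled TrifKO (edgeR adjusted p = 0.981 and 0.983). The 2 libraries with low Ticam1 had ratios of 0.622 and 0.625, and no library at 0 h had low Ticam1, so no LPS difference can be given for them alone.

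In the fit without a cohort term, the family totals of the adaptor knockouts passed only in MyD88KO at 4 h. There B1 was higher by 0.42 ± 0.12 (edgeR adjusted p = 0.0087) and B2 by 0.49 ± 0.16 (adjusted p = 0.0176), while at 2 h neither passed (0.24 and 0.35). Neither 4 h difference passed without TMM factors (0.07 and 0.14). In the libraries labelled TrifKO neither family passed at 2 h (0.19 and 0.29) or 4 h (0.22 and 0.29). With the cohort as a block, both families also passed in MyD88KO at 2 h. In the libraries labelled TrifKO, B2 then passed at 2 h and both families at 4 h. B1 levels in these libraries were 8347, 8721 and 8635 at 0 h and 10281, 10179 and 9446 at 4 h. The 4 h response of B1 was smaller than in wild type by 0.45 ± 0.15 (edgeR adjusted p = 0.0404), and that of B2 by 0.39 with adjusted p = 0.183. The B2 difference passed with the cohort block. Without TrifKO 0 h cohort 3, the B1 difference was -0.44 (adjusted p = 0.0851). Without TMM factors it was -0.03 (adjusted p = 0.933).

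Nearly all subfamilies rose with their family. In RAW264.7 control-guide cells all 5 B2 subfamilies and 15 of 16 B1 subfamilies rose, where 50.9% of all transposable element subfamilies rose with a median difference of 0.28. B2_Mm1a, a young B2 subfamily, was 624, 602 and 564 at 0 h and 999, 898 and 876 at 2 h, without overlap, a difference of 0.63. B2_Mm1t followed at 0.54 and B2_Mm2 at 0.43, and the older B3 and B3A were lowest at 0.32 and 0.30. Of the B1 subfamilies, B1_Mur4 (0.42) and B1_Mur3 (0.31) rose most, and PB1D11 (0.12) and PB1D10 (0.14) least among those called. FAM, the ancestral monomer with 117 copies, did not pass (0.21, adjusted p = 0.359). All 5 B2 subfamilies and 15 B1 subfamilies also rose with guide 1 (52.8% of all subfamilies) and guide 2 (58.3%). Without TMM factors, which lowers each control-guide difference by 0.18, 4 B2 and 2 B1 subfamilies were called. The share of all subfamilies called on that scale was not counted, and their median difference there was 0.10.

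Young B2 subfamilies rose more than older ones in the same libraries. B2_Mm1a, B2_Mm1t and B2_Mm2 together, set against B3 and B3A, rose by 0.19 ± 0.05 in the control guide (log2, edgeR adjusted p = 0.00487), 0.21 ± 0.05 with guide 1 and 0.16 ± 0.05 with guide 2. The same comparison gave 0.16 ± 0.04 at 2 h in wild-type dendritic cells (adjusted p = 0.000719) and 0.12 ± 0.04 at 4 h (adjusted p = 0.00429). At 4 h the young B2_Mm1t taken alone rose less than the older B3. In MyD88KO the comparison gave 0.14 at 2 h and 0.06 at 4 h (adjusted p = 0.0524 and 0.344). In the libraries labelled TrifKO it gave 0.07 and 0.02 (edgeR adjusted p = 0.405 and 0.87), so it passed under neither label. For B1, the young B1_Mm, B1_Mus1 and B1_Mus2 against the others gave 0.02 ± 0.02 in the control guide (adjusted p = 0.472) and fell by 0.07 at 2 h (adjusted p = 0.0128) and by 0.10 at 4 h (adjusted p = 0.000188) in wild-type dendritic cells. Without the highest B1_Mur3 copy, described below, the B1 falls did not pass, at -0.02 at 2 h (edgeR adjusted p = 0.362) and -0.005 at 4 h (adjusted p = 0.802). That copy was picked by its counts over these same libraries, LPS libraries included. Without the highest copy of each subfamily the 4 h difference turned to 0.07 (adjusted p = 0.000656). For B2, leaving out the 10 highest copies of each subfamily kept the 2 h difference at 0.14 (adjusted p = 0.000768) and left 0.02 at 4 h (adjusted p = 0.554). These comparisons were added after the values had been seen.

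**Figure D4:**
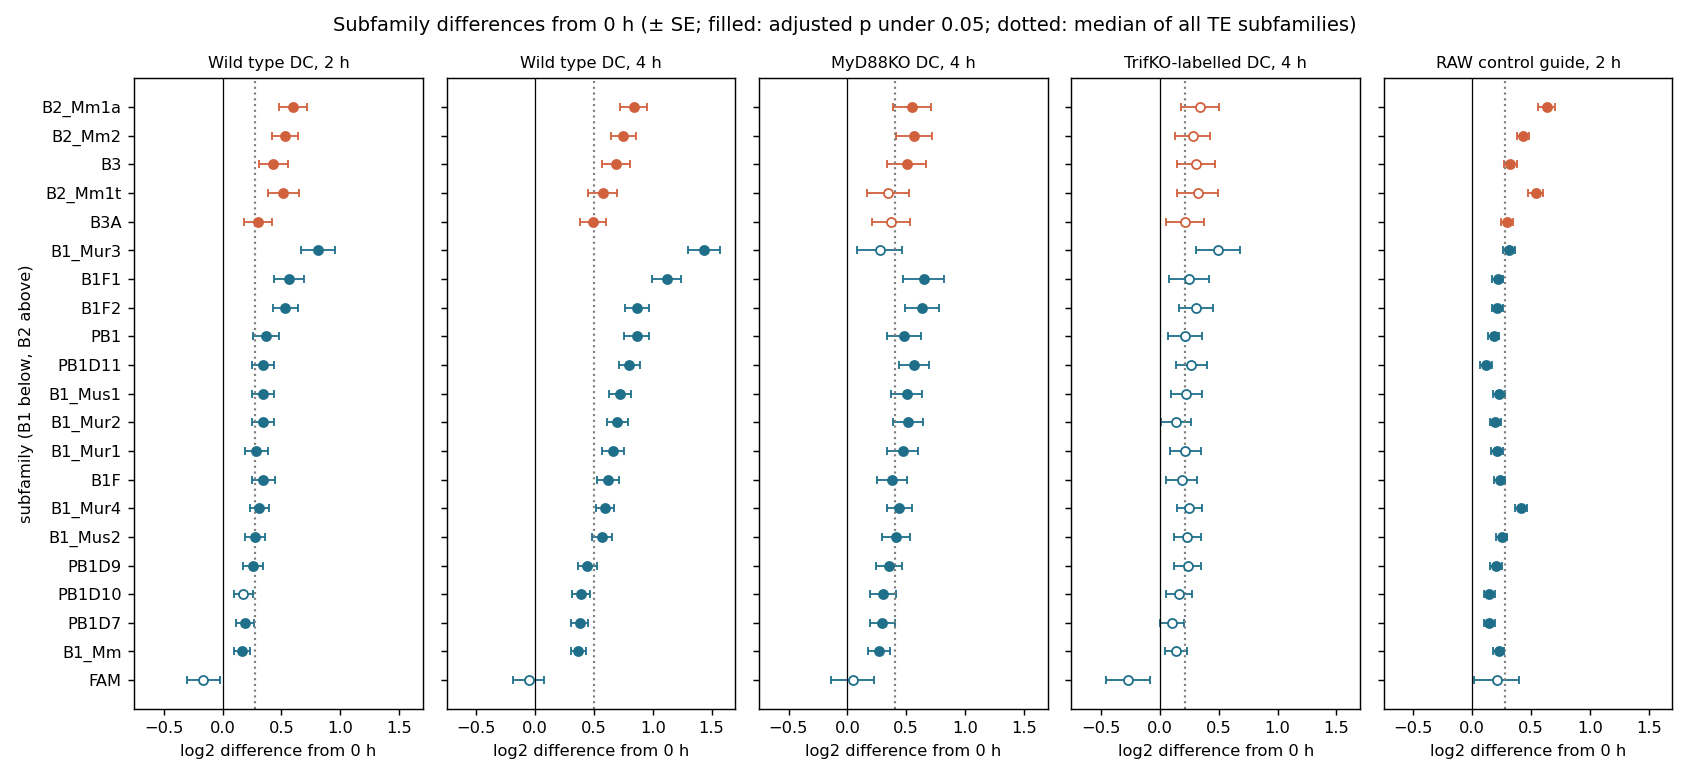
Log2 differences from 0 h with SE for the 16 B1 (blue) and 5 B2 (orange) subfamilies in 5 comparisons; filled points have an adjusted p under 0.05 and the dotted line is the median of all transposable element subfamilies. B2_Mm1a and B2_Mm1t lead in RAW264.7 cells at 0.63 and 0.54, while B1_Mur3 and B1F1 lead in wild-type dendritic cells at 4 h with 1.43 and 1.12.

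In wild-type dendritic cells at 2 h, 14 of 16 B1 and all 5 B2 subfamilies rose (39.2% of all subfamilies, median 0.28). At 4 h 15 of 16 B1 and all 5 B2 subfamilies rose (58.9%, median 0.50). From 2 to 4 h 12 B1 subfamilies and no B2 subfamily rose further (20.7%; 1 B2 subfamily had an unadjusted p under 0.05, and DESeq2 called 0). B1_Mus1, the subfamily with most B1 counts, ran from 869 to 1250 (median 1142) at 0 h and from 1602 to 2130 (median 1772) at 4 h. B3, the B2 subfamily with most counts, ran from 1365 to 2205 (median 1963) and from 2454 to 3625 (median 2952). Neither overlapped between these times, with differences of 0.72 and 0.69. B2_Mm2 (median 1257 to 2044), B3A (892 to 1142), B1_Mus2 (877 to 1220) and PB1D10 (872 to 1091) were the other subfamilies with many counts, with 4 h differences of 0.75, 0.49, 0.57 and 0.39. The largest differences at 4 h were B1_Mur3 (1.43) and B1F1 (1.12) for B1 and B2_Mm1a (0.84) and B2_Mm2 (0.75) for B2. The smallest were FAM (-0.05, not called) and B1_Mm (0.37) for B1 and B3A (0.49) and B2_Mm1t (0.57) for B2. Without TMM factors each 4 h difference is lower by 0.65, so that positive differences under this value change sign, and 9 B1 and no B2 subfamilies were called in either direction. At 2 h each is lower by 0.38, and 5 B1 and no B2 subfamilies were called. The share of all subfamilies called without the factors was not counted. Their median difference without the factors was -0.15 at 4 h and -0.11 at 2 h.

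In MyD88KO at 4 h 14 B1 and 3 B2 subfamilies rose, with B1_Mur3 at 0.27 and not called (34.5% of all subfamilies rose). No B1 or B2 subfamily was called by edgeR in MyD88KO at 2 h (6.98% of all rose; 7 B1 and 3 B2 had an unadjusted p under 0.05, and DESeq2 called 1 B2 subfamily). None was called in the libraries labelled TrifKO at 2 h (5.19%; 2 and 2 unadjusted) or 4 h (8.25%; 5 and 1 unadjusted), with none by DESeq2. Compared with the wild-type response at 4 h, B1_Mur3 was the 1 member that rose less in MyD88KO (2.54% of all subfamilies rose less; DESeq2 also called 1). In the libraries labelled TrifKO 7 B1 and no B2 subfamilies rose less (15.8%; 13 B1 and 2 B2 with an unadjusted p under 0.05, 12 and 2 called by DESeq2). These were B1F1, B1F2, B1_Mur2, B1_Mur3, B1_Mus1, PB1 and PB1D11, with differences from -0.94 to -0.50.

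The leading B1 subfamilies rose mostly through few copies. A B1_Mur3 copy with the serial number 690136 ran from 5.53 to 9.31 TMM-scaled CPM (median 7.64) in wild type at 0 h. It ran from 106 to 310 (median 257) at 2 h and from 261 to 778 (median 635) at 4 h. It rose by 6.24 ± 0.36 at 4 h (log2, edgeR adjusted p = 3.99e-16) and made up 1.95% of B1_Mur3 counts at 0 h and 53.3% at 4 h. All other B1_Mur3 copies together had a mean of 377 ± 44.8 (SD) at 0 h and 477 ± 56.8 at 4 h. Without this copy the B1_Mur3 difference was 0.34 (adjusted p = 0.00271) in place of 1.43. Its rise was 2.33 ± 0.43 in MyD88KO and 4.42 ± 0.47 in the libraries labelled TrifKO. The difference from wild type was -3.92 ± 0.52 (edgeR adjusted p = 0.000145) and -1.82 ± 0.51 (adjusted p = 0.0424). The copy was picked by its counts over all libraries, with a mean of 22732 in wild type and 1249 in MyD88KO at 4 h. A smaller rise outside wild type was thus favoured by the choice, and these differences are no test of genotype. Without copy 690136 the B1_Mur3 difference between responses was -0.13 (adjusted p = 0.86) for MyD88KO and -0.23 (adjusted p = 0.39) for TrifKO-labelled libraries.

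**Figure D5:**
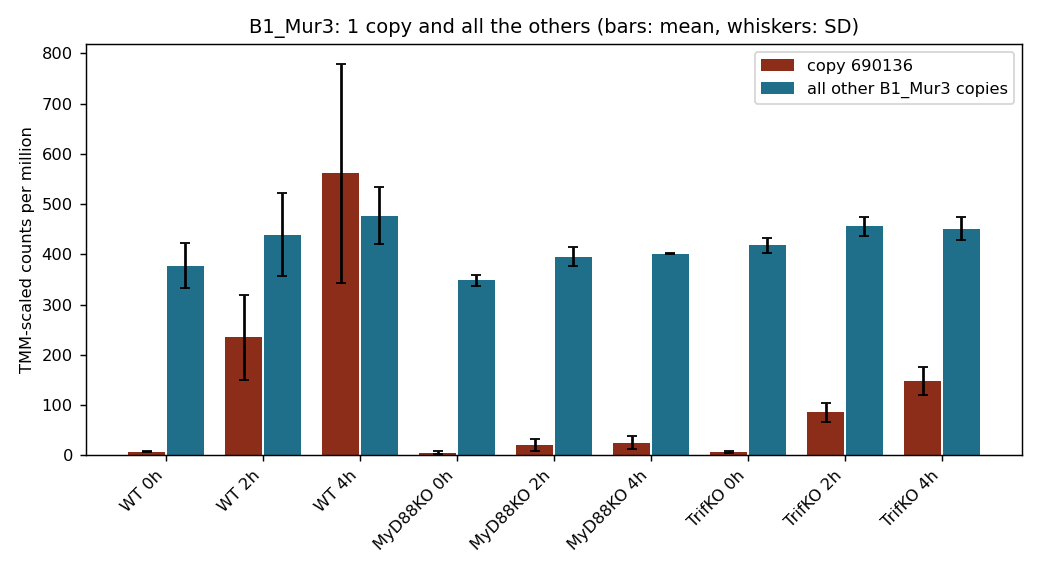
Mean TMM-scaled CPM (bars, whiskers SD) of the B1_Mur3 copy 690136 and of all other B1_Mur3 copies together in the dendritic cell LPS groups. The single copy goes from a mean of 7.42 to 562 in wild type at 4 h and to 25.3 in MyD88KO, while the other copies move from 377 to 477 in wild type.

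High copies were picked by counts over the experiment's own libraries, LPS libraries included. Copies raised by LPS were thus more likely to be left out, which favours a smaller LPS difference without them. The highest copy also weighed in other B1 subfamilies. Without it, the wild-type 4 h difference went from 1.12 to 0.59 for B1F1 (copy 921490) and from 0.86 to 0.40 for B1F2 (copy 3261842, with 18.1% of the counts of B1F2 over all libraries). For the B2 subfamilies it moved by less, from 0.84 to 0.78 for B2_Mm1a and from 0.75 to 0.73 for B2_Mm2. Without the 10 highest copies of each subfamily, B1_Mur3 (0.21, adjusted p = 0.0563) and PB1 (0.20, adjusted p = 0.0649) no longer passed at 4 h, and all 5 B2 subfamilies did, at 0.44 to 0.55. In RAW264.7 cells the 5 B2 differences without the 10 highest copies were 0.25 to 0.61. With these copies left out, B2 exceeded B1 at 4 h in wild type by 0.13 (adjusted p = 0.00709) where the full totals gave 0.02.

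Single copies moved both ways. Copies with at least 10 counts in at least 3 libraries were tested, which left 14170 B1 copies (2.47% of all B1 copies) and 9967 B2 copies (2.67%) in the LPS experiment. At 4 h in wild type 3754 B1 and 2640 B2 copies were higher, 26.5% of each, where 28.4% of all transposable element copies were higher. Lower were 2044 B1 copies (14.4%) and 1112 B2 copies (11.2%), beside 14% of all. At 2 h 18.4% of B1 and 19.2% of B2 copies were higher (20.3% of all) and 11.4% and 9.21% lower (10.9%). The shares of higher copies of both families were thus near the background at each time.

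In MyD88KO at 4 h 12.4% of B1 and 11.2% of B2 copies were higher (13.2% of all) and 2.43% and 1.80% lower (2.4%). In the libraries labelled TrifKO 3.34% and 2.99% were higher (4% of all) and 1.18% and 0.893% lower (1.41%). In RAW264.7 control-guide cells 12.6% of 13880 B1 copies and 14.5% of 10944 B2 copies were higher (15.9% of all), and 4.46% and 3.11% were lower (4.81%). The median difference of the tested copies there was 0.19 for B1, 0.36 for B2 and 0.25 for all transposable element copies. By subfamily it was 0.63 for B2_Mm1a and 0.56 for B2_Mm1t, and B1 subfamilies other than FAM ran from 0.12 to 0.24.

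Of the copies called at 4 h in wild type with a mean of at least 50 counts per library at the higher time and libraries of both times apart, 634 B1 copies were higher and 277 lower, and 403 B2 copies were higher and 110 lower. The same count was not made for all transposable element copies, so these numbers do not show whether SINEs differ from other repeats. The largest B1 rises were PB1D9 copy 3516552 and PB1 copy 921541. PB1 copy 921541 ran from 0.269 to 1.02 (median 0.386) at 0 h and up to 145 (median 55.9) at 4 h, and rose by 7.25 ± 0.56 (edgeR adjusted p = 5.89e-13). The largest B2 rises were B3A copy 3516541 (8.05 ± 0.53) and B2_Mm2 copy 921535 (7.10 ± 0.77). B2_Mm2 copy 921535 ran from 0 to 0.0502 at 0 h and up to 5.81 (median 1.58) at 4 h. The leading B1 and B2 copies thus had serial numbers close to each other, 3516552 and 3516541 in one pair and 921541 and 921535 in the other. The sources used here do not say whether the numbers follow the order along the genome. The largest falls were B1_Mur2 copy 3851540 (-5.31 ± 0.58) and PB1D9 copy 3545702 (-3.43 ± 0.39) for B1, and B2_Mm2 copies 3263914 (-3.73 ± 0.41) and 477152 (-3.26 ± 0.40) for B2. In the libraries labelled TrifKO, PB1 copy 921541 and B3A copy 3516541 rose less than in wild type (edgeR adjusted p = 0.000554 and 0.00407). PB1D9 copy 3516552 and B2_Mm2 copy 921535 did not pass there (adjusted p = 0.26 and 0.0614). For MyD88KO none of these differences passed (adjusted p = 0.976 and 0.829, then 0.832 and 0.847). The copies were picked by their wild-type rise, which also enters these differences. A smaller rise elsewhere was thus favoured by the choice, and the differences are no test of genotype.

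Counts were concentrated on few copies in both families, as they were over all transposable element copies. In all libraries together 2244 B1 copies (0.391%) and 2500 B2 copies (0.67%) held 50% of their family's counts. The 10 highest copies held 4.62% of B1 and 7.66% of B2 counts. Of all transposable element copies 0.147% held 50% of the counts, and the 10 highest held 4.95%. The share of copies with any count was highest in the young B2 subfamilies, 84.9% for B2_Mm1a, 75.3% for B2_Mm1t and 60.5% for B2_Mm2, against 47.4% for B3 and 41% for B3A. It lay between 46.4% and 59.7% in the B1 subfamilies and was 37.9% over all transposable element copies.

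Loss of Suv39h1 or of the interferon receptor left B1 and B2 within the spread of the libraries. B1 was 9170, 7805 and 10484 in wild type and 9528, 7952 and 9155 in Suv39h1KO, and B2 was 5204, 4102 and 5818 against 5346, 4120 and 4954. The ratio was 0.526 to 0.567 in wild type, 0.518 to 0.561 in Suv39h1KO, 0.543 to 0.570 in IfnarKO and 0.547 to 0.574 in Suv39h1KO with IfnarKO, overlapping throughout. The log2 difference of the ratio was -0.02 ± 0.04 for Suv39h1KO against wild type (approximate 95% interval -0.10 to 0.05; edgeR adjusted p = 0.999) and 0.02 ± 0.04 for Suv39h1KO with IfnarKO against IfnarKO (-0.05 to 0.09; adjusted p = 0.93). No B1 or B2 subfamily was called by edgeR in Suv39h1KO against wild type (0.53% of all subfamilies called), IfnarKO against wild type (0.106%), or the double knockout against IfnarKO (0.636%) or against Suv39h1KO (0.106%). None had an unadjusted p under 0.05 and DESeq2 called none. Among tested copies, 13 of 13380 B1 (0.0972%) and 15 of 8713 B2 copies (0.172%) were higher in Suv39h1KO, beside 0.196% of all transposable element copies.

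Unstimulated MyD88KO and TrifKO-labelled dendritic cells differed from wild type in no B1 or B2 subfamily (0% of all subfamilies called in each), none with an unadjusted p under 0.05 and none by DESeq2. The LPS response at 2 h of MyD88KO (0.106% of all called) and of the libraries labelled TrifKO (2.33%) differed from wild type in none either, with 1 B1 subfamily at an unadjusted p under 0.05 in MyD88KO and none by DESeq2. In RAW264.7 cells neither guide differed from the control in a B1 or B2 subfamily at 0 h (1.71% of all called for guide 1, 5.12% for guide 2) or 2 h (2.35% and 2.45%), by edgeR or DESeq2. An unadjusted p under 0.05 occurred for 7 B1 and 1 B2 subfamilies with guide 2 at 0 h. The LPS response with either guide did not differ from that of the control in any (0% in both; 0 unadjusted and 0 by DESeq2), and the ratio responses differed by 0.03 ± 0.03 for each guide (approximate 95% interval -0.04 to 0.09).

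Genes that make, bind, sense or silence SINE RNA, in lists made from general knowledge, moved in both directions with LPS. All values are on the TMM scale, and those of RAW264.7 cells are from the control guide unless another guide is named. Without the factors each is lower by 0.65 at 4 h in wild type and by 0.18 in RAW264.7 cells. Of 29 genes of RNA polymerase III and its factors, 5 rose and 13 fell at 4 h in wild-type dendritic cells, where 30.2% of all genes rose and 35% fell. Polr3g, a subunit found in one form of the enzyme, fell by 1.98, its alternative Polr3gl fell by 1.45, and the core subunit Polr3c rose by 1.13. At 2 h 3 rose and 11 fell (21.4% and 24.6% of all genes). In RAW264.7 cells 10 rose and 9 fell (26.4% and 25.4%), with the subunit Polr3d up by 0.79, the factor subunit Gtf3c5 at -0.62 and Gtf3c1 at -0.54. Maf1, the repressor of RNA polymerase III, which was singled out after its values were seen, fell by 0.46 in RAW264.7 cells and by 0.42 at 4 h in wild-type dendritic cells.

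Of 16 genes of silencing at SINEs, 1 rose and 9 fell at 4 h in wild type, where 30.2% of all genes rose and 35% fell. In RAW264.7 cells 1 rose and 11 fell (26.4% and 25.4% of all genes). The same shares are the background of the lists that follow, and whether a list departs from them was not tested. The heterochromatin protein gene Cbx3 fell by 1.64, the DNA methyltransferase Dnmt1 by 1.61 and its partner Uhrf1 by 1.07 at 4 h, and the histone methyltransferase gene Ehmt1 fell by 0.99 in RAW264.7 cells. Of 10 measured genes of proteins that bind SINE or RNA polymerase III transcripts, 4 rose and 1 fell at 4 h, led by the RNA-editing enzyme Adar (2.45) and the RNA-binding proteins Hnrnpc (0.90) and Elavl1 (0.69), and in RAW264.7 cells 5 rose and 1 fell, with Adar at -0.08 and not called. Of 12 sensors of double-stranded RNA, 10 rose and 2 fell at 4 h in wild type, with Ifih1 at 5.25, Zbp1 at 5.12 and Ddx58 at 4.65. In RAW264.7 cells with the control guide 2 rose, Ifih1 (4.54) and Zbp1 (1.32), and 3 fell. Guide 1 also had 2 higher and 3 lower, and guide 2 had 6 higher and 2 lower (26.4% and 24.6% of all genes). The response with guide 2 differed from that of the control in 0 of the 12 by edgeR.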

How the data were processed

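Gene and repeat counts were deposited by the authors as raw read counts, 1 row per gene or repeat copy and 1 column per library. The submitters' processing notes name STAR, HOMER, DESeq2 and the genome build mm10. Strand use, the handling of reads with several matches and the positions of the copies are not given in the sources used here, so overlapping genes and near-identical copies may share reads. The members and lists were chosen with earlier results of these data known.

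Copies were summed per family and subfamily. Library sizes were gene totals times TMM factors from the gene table. Differences were tested with edgeR 4.0.16 (quasi-likelihood, R 4.3.3), fitted within each experiment with 1 term per group and adjusted by Benjamini-Hochberg over all rows, with a threshold of 0.05; SE is the log2 difference divided by the square root of F, and intervals are approximate at 95%. The ratio of B2 to B1 was fitted with B1 counts as library size and tested again by exact two-sided permutation over libraries. Copies needed 10 counts in 3 libraries. The fits were tested on simulated counts. Of 88 pairs within groups none had gene counts that agree within sampling noise. Values per library were named for family totals and the subfamilies with most counts, folds for the 2 highest and lowest subfamilies of each family, 2 rises and 2 falls of copies per family among those past 50 mean counts without overlap, and up to 3 genes a list.

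In the unstimulated knockout experiment libraries of the same cohort deviated together (correlations of 0.268 to 0.615 between residuals), and the cohort block changed no call of a family, of a ratio or of a subfamily there. Alternatives were DESeq2 1.42.0, no TMM, scaling to repeat counts with TMM factors, no filter, only the compared groups, the cohort block, library sets, and leaving out libraries or high copies. The high copies were picked by counts over the same libraries, so their removal is no independent test of the LPS differences.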

Additional observations from a re-analysis of the deposited data

Results flagged for a closer look

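The 4 h response of the libraries labelled TrifKO differed from that of wild-type dendritic cells for the B1 family and 7 of its subfamilies. By edgeR the difference of responses was -0.4483 for the B1 family (log2, adjusted p = 0.0404). It was -0.8713 for B1F1 (adjusted p = 0.00378), -0.9377 for B1_Mur3 (adjusted p = 0.00492) and -0.6514 for PB1 (adjusted p = 0.00993). It was -0.5608 for B1_Mur2 (adjusted p = 0.0111), -0.5334 for PB1D11 (adjusted p = 0.0174), -0.5567 for B1F2 (adjusted p = 0.0238) and -0.4959 for B1_Mus1 (adjusted p = 0.0278). Without the highest copy of each subfamily B1_Mur2 (-0.56), B1_Mus1 (-0.48) and PB1 (-0.69) still passed. The PB1 copy left out there was 1747114. PB1 copy 921541, with 0.291% of PB1 counts at 0 h and 23.8% at 4 h in wild type, stayed in that fit. Without the 10 highest copies or without TMM factors no member passed. Ticam1 was at wild-type level in 7 of the 9 libraries labelled TrifKO and low only in cohort 3 at 2 h and 4 h. The 9 libraries are thus not shown to share 1 genotype, and the Ticam1 level alone does not settle it.

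The response of B1_Mur3 at 4 h in MyD88KO differed from that in wild type by -1.16 (log2, edgeR adjusted p = 0.00356), and by -0.13 (adjusted p = 0.86) once its highest copy was left out. That copy was picked by its counts over these same libraries.

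The low-numbered wild-type library of cohort 2 at 0 h stood apart from the other 5, with 10.46% of its repeat counts on B2 where the nearest library had 11.53%. It was the 1 such library among 15 sets of values checked in wild-type groups, where about 1 in 20 is flagged by chance. It also had the lowest ratio of B2 to B1 of all libraries, 0.516.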

How the results depend on the processing

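The higher ratio of B2 to B1 in RAW264.7 cells after LPS passed under each of 13 settings a guide, at 0.15 to 0.27 in the control guide, 0.18 to 0.32 in guide 1 and 0.17 to 0.30 in guide 2 (log2). Over all comparisons and settings, 449 of 486 B1 values, 456 of 486 B2 values and 431 of 458 ratio values kept their side of the threshold and, where called, their direction; 40, 38 and 34 values that were not called changed sign. Counts of called subfamilies stayed within 1.5 times in 876 of 972 cases. The cause of each change below was not tested.

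Without TMM factors B1 was -0.061 at 2 h and 0.016 at 4 h in wild type, 0.074 at 4 h in MyD88KO, 0.076 from 2 to 4 h in wild type, -0.028 for the TrifKO difference of responses at 4 h, and 0.046, 0.058 and 0.093 in RAW264.7 cells with the control guide, guide 1 and guide 2, none called; B2 was 0.060 and 0.024 in wild type and 0.14 in MyD88KO, not called. Scaled to repeat counts with TMM factors, B1 fell in RAW264.7 cells (-0.069, -0.072 and -0.077), was -0.015 in MyD88KO at 4 h, 0.016 in wild type at 2 h, 0.083 from 2 to 4 h and -0.082 for the TrifKO difference, not called; B2 was 0.054 in MyD88KO at 4 h, not called, and passed at 2 h in MyD88KO (0.15) and TrifKO (0.14).

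In the dendritic cell LPS experiment, residuals of libraries of the same set and cohort correlated by 0.332 on average (-0.264 to 0.739). Other pairs of libraries had a mean of -0.061. With the cohort as a replicate block there, MyD88KO at 2 h passed for B1 (0.24), B2 (0.36) and the ratio (0.11). TrifKO passed at 2 h for B2 (0.29) and the ratio (0.11), and at 4 h for B1 (0.22) and B2 (0.28). The TrifKO difference passed for B2 (-0.40), as did 2 to 4 h in wild type for B2 (0.30). With the library set as a term, MyD88KO at 2 h passed for B1 (0.24), B2 (0.35) and the ratio (0.11), as did the TrifKO ratio at 2 h (0.11), the TrifKO difference for B2 (-0.39) and B2 from 2 to 4 h (0.27). With wild-type libraries of a cohort summed, MyD88KO at 2 h passed for B1 (0.24), B2 (0.36) and the ratio (0.11), TrifKO at 2 h for B2 (0.29) and the ratio (0.11), at 4 h for B2 (0.28), and the TrifKO difference for B2 (-0.40). Against wild type of the same set that difference was -0.37 and passed. In the low-numbered wild-type libraries alone, B1 (0.21), B2 (0.29) and the ratio (0.079) at 2 h and the ratio from 2 to 4 h (-0.030) no longer passed, and B2 from 2 to 4 h did (0.43).

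Fitted on the compared groups alone, B1 (0.35), B2 (0.47) and the ratio (0.12) at 2 h in wild type and B1 (0.30) and the ratio (-0.10) from 2 to 4 h no longer passed. B2 at 2 h in MyD88KO (0.36) did, as did TrifKO B1, B2 and the ratio at 2 h (0.17, 0.28 and 0.11) and 4 h (0.21, 0.28 and 0.068). Without the 10 highest copies of each subfamily, B1 (0.18) and B2 (0.33) at 2 h in wild type, B1 (0.29) and B2 (0.38) at 4 h in MyD88KO, the TrifKO difference for B1 (-0.22), and B1 (0.21) and the ratio (-0.015) from 2 to 4 h no longer passed, while the ratio at 4 h in wild type did (0.13). With young subfamilies only, the ratio passed at 4 h (0.15) and not from 2 to 4 h (-0.11). The ratio from 2 to 4 h (-0.10) was also lost with DESeq2 and without a filter on low counts, as was the TrifKO difference for B1 without a filter (-0.45).

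Leaving out 1 library gave -0.52 to -0.39 for the TrifKO difference of B1, lost without any of the 3 TrifKO libraries at 0 h, TrifKO cohorts 2 and 3 at 4 h, the low-numbered wild-type cohort 2 at 0 h, or the high-numbered wild-type cohorts 1 and 2 at 4 h. It gave 0.088 to 0.16 for the wild-type ratio at 2 h, lost without high-numbered cohort 1 at 2 h. The ratio from 2 to 4 h ran from -0.14 to -0.073 and was lost without 8 of 11 libraries. B2 at 4 h in MyD88KO ran from 0.47 to 0.52 and was lost without cohort 2 or 3 at 0 h or cohort 3 at 4 h.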
